A study of Homo sapiens with 3 samples.

Results

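The genes described here are ARL6IP1 and 9 further genes whose proteins shape the membrane of the endoplasmic reticulum (ER), namely RTN3, RTN4, REEP3, REEP4, REEP5, REEP6, ATL2, ATL3 and CKAP4. They were taken by symbol from the 22613 genes listed for each library, and all 10 were found. They had been chosen from measured values of this same experiment, in which ARL6IP1 stood far below its controls, so their differences between siE2F1 and control are given as a description, with no test. RNA sequencing was done on LNCaP-abl cells, a subline of the prostate cancer line LNCaP that grows without androgen, kept in medium with charcoal-stripped serum. One group (siE2F1, 1 library) had received a pool of siRNAs against the transcription factor E2F1, the other (control, 2 libraries numbered 0 and 1) control siRNA, both by lipid transfection 72 h before RNA extraction. Whether the controls came from separate cultures is not stated, and siE2F1 has no replicate.

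The ER is a continuous membrane of flat sheets and thin tubules. Reticulons, REEP proteins and ARL6IP1 insert hairpins into one face of the membrane and so curve it into tubules. Atlastins are GTPases that fuse tubules into a network, and CKAP4 keeps the faces of a sheet apart. ARL6IP1 was named for its binding to the small GTPase ARL6, and inherited loss of it causes a form of spastic paraplegia, as does loss of several other ER-shaping genes.

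E2F1, the silenced gene, was lower in siE2F1 than in both controls. It was at 1.68 FPKM in siE2F1, against 10.6 FPKM in each control (limma log2 fold change -2.12, adjusted p = 0.0311), a call lost with a pseudocount of 0.1 FPKM or with no filter on low genes. FPKM are fragments scaled to transcript length and to sequencing depth, so levels may be compared between genes. Of 7 luminal prostate markers 6 were above 1 FPKM in each library. KLK3, which encodes PSA, was the exception, at 0.156 FPKM in siE2F1 and 0.152 and 0.0531 FPKM in the controls. Summed stromal markers (3 of 5 listed) were at 3.26 FPKM in siE2F1 and 4.49 and 3.6 FPKM in the controls, and summed leukocyte markers (2 of 4 listed) at 6.09 FPKM in siE2F1 and 6.31 and 6.44 FPKM in the controls. The 1 basal marker listed, KRT14, was at 0 in all 3 libraries.

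ARL6IP1 was at 16.4 FPKM in siE2F1, against 137.5 and 145.3 FPKM in control 0 and control 1. The siE2F1 library thus lay far below both controls, which differed little from each other. All differences given here are in log2(FPKM + 1), so that low genes appear to change less than they do. For ARL6IP1 they were -2.99 against control 0 and -3.07 against control 1, while the controls were 0.08 apart. Genes were tested when they averaged 1 FPKM or more over the libraries, which 14401 did. The ARL6IP1 mean difference of -3.03 ranked 36 from the lowest among these, and every lower one was a small RNA gene (a microRNA or a small nucleolar, Cajal body or nuclear RNA). Among the 13928 tested genes of other kinds it ranked 1 from the lowest with the pseudocount of 1 FPKM and 10 with a pseudocount of 0.1 FPKM, where low genes such as CSAG2 (-3.93) lay below its -3.10. Lower RNA per cell and fewer cells expressing the gene cannot be told apart in bulk RNA.

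The place of ARL6IP1 among these 10 genes differed between the groups. In siE2F1 it was rank 8 of 10 by FPKM and made up 3.86% of their summed level, while in control 0 and control 1 it was rank 1, with 27.0% and 28.1%. Among all 14401 tested genes, its level was at percentile 67.1 in siE2F1, against 96.6 and 96.8 in the controls. RTN4 was present at 6.16 times the ARL6IP1 level in siE2F1, against 0.506 and 0.471 times in the controls. The 10 genes together summed to 425.6 FPKM in siE2F1 and to 509.8 and 516.7 FPKM in the controls. Without ARL6IP1 the sum was not lower: the other 9 genes came to 409.2 FPKM in siE2F1 and to 372.4 and 371.5 FPKM in the controls.

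**Figure D1:**
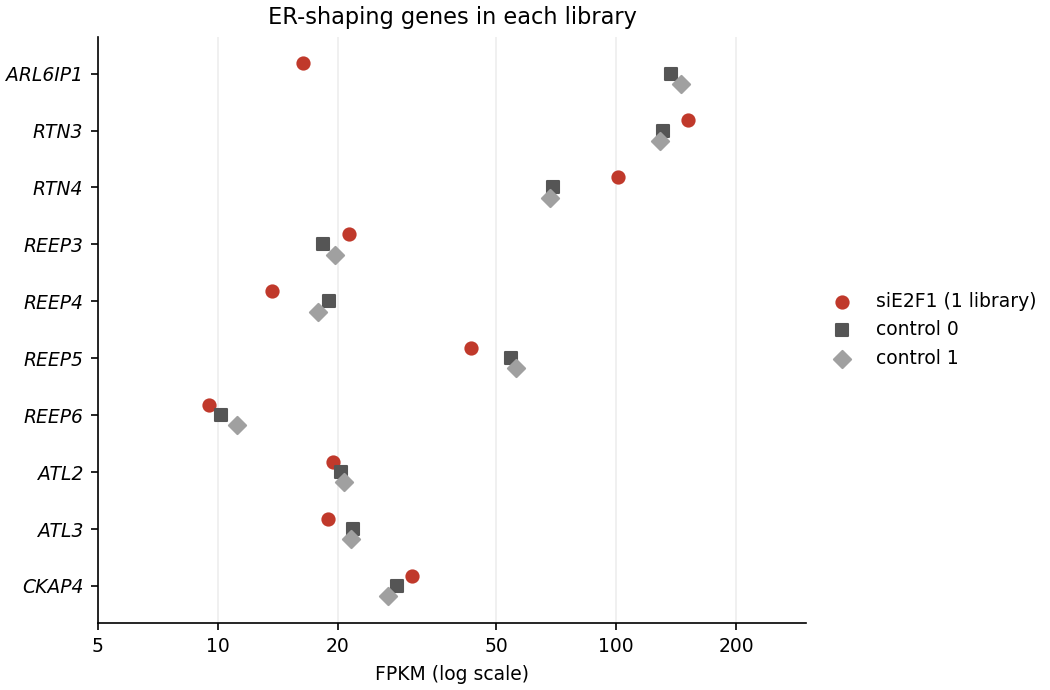
FPKM of the 10 ER-shaping genes on a log axis, 1 point per library (red circle siE2F1, dark square control 0, light diamond control 1). ARL6IP1 is at 16.4 FPKM in siE2F1 and at 137.5 and 145.3 FPKM in the controls, while the siE2F1 point of every other gene stays within 2-fold of its controls.

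The sequence before the ARL6IP1 start is shown because E2F1 acts at promoters, which can be searched for its motif. RefSeq windows (build GRCh38.p14) had 300 bases, 250 before and 50 after an annotated start. The set searched covered 8 of the 10 genes, 18 windows in all. REEP4 could not be matched, because the windows of its chromosome had been left out of that set. REEP3 was not matched in it either, so the promoters of both genes were not searched. Whether RefSeq has windows for REEP3 is not addressed here. The E2F motif was searched on both strands as TTTCGCGC, TTTGGCGC, TTTCCCGC or TTTGCCGC, the CHR motif of cell cycle promoters as TTTGAA, and the CCAAT box as CCAAT. An E2F motif was in 3.31% of the 35116 windows searched, a CHR motif in 15.2% and a CCAAT box in 34.6%. Neither ARL6IP1 window held an E2F or a CHR motif in these spellings. The window at chr16:18801500-18801799 (minus strand) held CCAAT boxes, 1 on each strand, whose left ends lie 200 and 77 bases before the start, here in capitals:
ARL6IP1: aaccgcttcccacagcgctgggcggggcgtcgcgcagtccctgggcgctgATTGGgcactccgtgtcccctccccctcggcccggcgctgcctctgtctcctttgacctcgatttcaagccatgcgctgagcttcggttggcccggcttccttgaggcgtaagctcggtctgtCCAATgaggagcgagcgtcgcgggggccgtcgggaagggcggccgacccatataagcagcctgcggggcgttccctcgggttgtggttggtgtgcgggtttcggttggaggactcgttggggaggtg

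An E2F motif was found for 2 of the 8 genes, ATL3 and REEP6, and in 2 of the 18 windows. Over 27305 genes, the first listed window held one for 3.33%. The ATL3 and REEP6 windows are printed to set against that of ARL6IP1, with E2F, CHR and CCAAT matches in capitals. ATL3 (chr11:63671327-63671626, minus strand) held TTTCCCGC at left ends 198 and 49 bases before the start and a TTTGAA 23 bases after it. REEP6 (chr19:1490931-1491230, plus strand) held TTTCCCGC on the opposite strand 5 bases after the start, and 4 CCAAT boxes. A match is a run of letters and not a bound site, and a window with no match says nothing of the factor.
ATL3: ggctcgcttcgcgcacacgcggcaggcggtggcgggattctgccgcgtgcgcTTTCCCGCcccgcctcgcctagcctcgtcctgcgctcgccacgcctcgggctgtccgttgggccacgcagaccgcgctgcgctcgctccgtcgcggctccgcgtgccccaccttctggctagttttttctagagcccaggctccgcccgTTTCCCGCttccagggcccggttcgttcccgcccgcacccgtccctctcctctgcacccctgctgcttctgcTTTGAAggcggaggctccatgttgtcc
REEP6: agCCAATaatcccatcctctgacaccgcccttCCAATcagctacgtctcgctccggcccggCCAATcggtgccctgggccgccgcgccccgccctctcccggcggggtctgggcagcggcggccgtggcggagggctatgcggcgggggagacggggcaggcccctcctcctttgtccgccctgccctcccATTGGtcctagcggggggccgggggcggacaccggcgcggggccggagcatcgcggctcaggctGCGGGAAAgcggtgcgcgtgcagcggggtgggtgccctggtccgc

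The reticulon genes RTN3 and RTN4 were higher in siE2F1 than in both controls. Besides ARL6IP1, they had the highest RNA levels among the genes for hairpin proteins described here. RTN4, which encodes Nogo, was at 101.0 FPKM in siE2F1, against 69.6 and 68.4 FPKM in control 0 and control 1, a mean difference of 0.54 with the controls -0.02 apart. RTN3 was at 151.0 FPKM in siE2F1, against 130.6 and 129.0 FPKM in the controls (mean difference 0.22, controls -0.02 apart). For both genes the siE2F1 value lay outside the narrow range of the controls. Their summed level was 1.27 times the control mean, at 252.0 FPKM in siE2F1 and 200.2 and 197.4 FPKM in the controls.

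The REEP genes did not share a direction. REEP5, a main curving protein of ER tubules, was at 43.3 FPKM in siE2F1, against 54.4 and 56.2 FPKM in the controls (mean difference -0.34). REEP6, its close relative, was at 9.53 FPKM in siE2F1, against 10.2 and 11.2 FPKM in the controls (mean difference -0.15). REEP6 was the 1 gene of the 10 for which siE2F1 lay nearer to a control than the controls lay to each other (0.09 against 0.12).

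REEP3 and REEP4 bind microtubules and keep ER membrane off the chromosomes in mitosis. REEP4 was at 13.7 FPKM in siE2F1, against 19 and 17.9 FPKM in the controls, a mean difference of -0.41 that was the lowest of the 10 genes after ARL6IP1. REEP3 was at 21.4 FPKM in siE2F1, against 18.4 and 19.7 FPKM in the controls (mean difference 0.17). REEP4 thus lay below both controls and REEP3 above both, and their control values overlapped. The 4 REEP genes together summed to 88.0 FPKM in siE2F1 and to 102.0 and 104.9 FPKM in the controls.

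The atlastins, which fuse tubules, showed small differences. ATL3 was at 18.9 FPKM in siE2F1, against 21.8 and 21.6 FPKM in the controls (mean difference -0.19, controls -0.01 apart). ATL2 was at 19.5 FPKM in siE2F1, against 20.4 and 20.8 FPKM in the controls (mean difference -0.07, controls 0.03 apart). For each atlastin siE2F1 lay below both controls, at a greater distance than the gap between them. CKAP4, the sheet protein also called CLIMP-63, was at 30.8 FPKM in siE2F1, against 28.1 and 26.8 FPKM in the controls (mean difference 0.16, controls -0.06 apart).

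Counted over the 10 genes, 6 lay below both controls and 4 above both. Over all 14401 genes tested, 39.7% lay below both controls and 43.7% above both. ARL6IP1 was the 1 gene of the 10 at least 2-fold beyond both controls, and it lay below them. Of all genes tested, 0.833% were at least 2-fold below both, or 0.546% without small RNA genes. A further 107 of the 14401 were at least 2-fold above both. For 9 of the 10 the distance to the nearer control exceeded the gap between the controls, as it did for 59.5% of all genes tested. Since these genes were picked with this contrast known, nothing is read from these counts. Without ARL6IP1 the differences ran from -0.41 to 0.54 with a median of -0.07, and the median over all genes tested was 0.01 (quartiles -0.17 and 0.18).

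**Figure D2:**
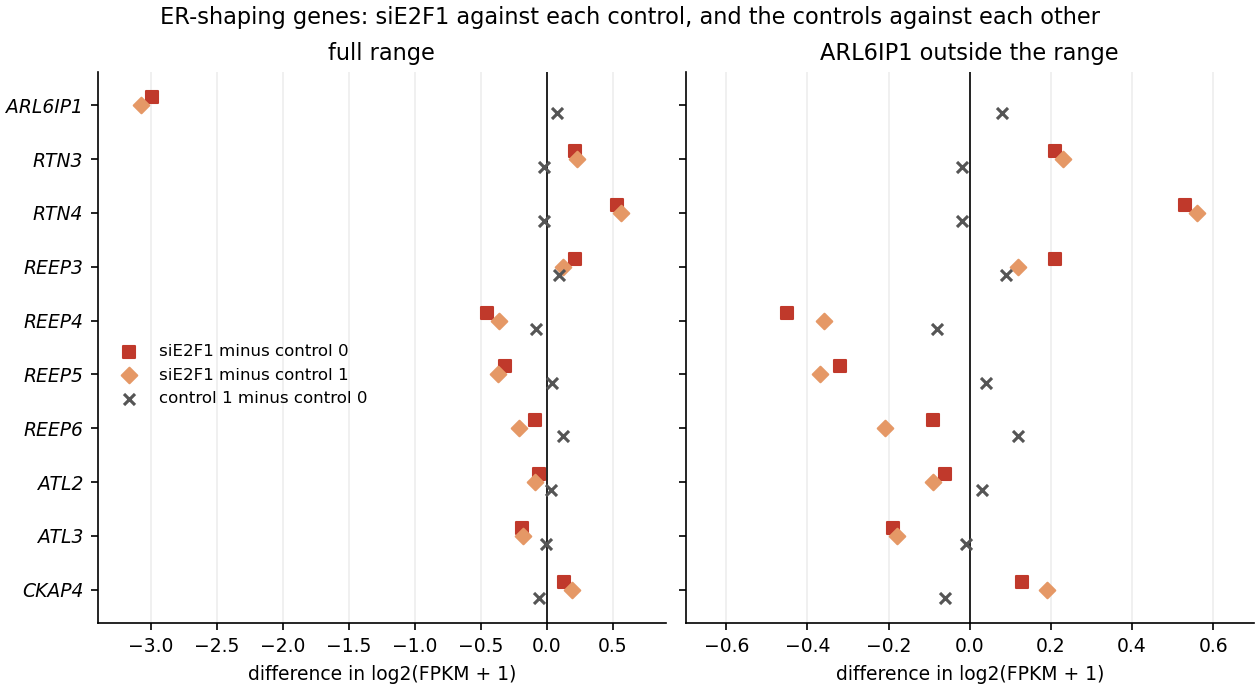
Differences in log2(FPKM + 1) for the 10 genes: siE2F1 minus control 0 (red squares), siE2F1 minus control 1 (orange diamonds) and control 1 minus control 0 (grey crosses), over the full range on the left and near 0 on the right. ARL6IP1 is at -2.99 and -3.07, whereas the other genes lie between -0.45 and 0.56 and the controls within 0.12 of each other.

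By level, the controls gave the order ARL6IP1, RTN3, RTN4, REEP5, CKAP4, ATL3, ATL2, then REEP3 and REEP4, whose control values overlapped, and REEP6 last. The siE2F1 library gave RTN3, RTN4, REEP5, CKAP4, REEP3, ATL2, ATL3, ARL6IP1, REEP4 and REEP6. The highest control value of ATL2 (20.8 FPKM) and the lowest of ATL3 (21.6 FPKM) were close, and the atlastins changed places in siE2F1 (19.5 FPKM for ATL2 and 18.9 FPKM for ATL3). GENCODE release 29 names 3 copies of ARL6IP1 and 1 of RTN3 as pseudogenes. Annotated genes overlap ARL6IP1, RTN4 and CKAP4 on the same strand, and REEP3, REEP6, CKAP4, REEP5, ATL3 and RTN3 on the opposite strand. Reads of such copies could be divided between genes, and strand is not marked by the library kit. The part of these in single values was not tested.

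The listed genes next to ARL6IP1 in order on chromosome 16, taken without a limit on distance, differed little between siE2F1 and the controls. Going outward, the 4 listed protein-coding genes on the side of lower coordinates are RPS15A, NOMO2, NOMO3 and ABCC6, and those on the other side SMG1, TMC7, COQ7 and ITPRIPL2. RPS15A, a ribosomal protein gene with many processed copies, was at 1816 FPKM in siE2F1, against 1598 and 1762 FPKM in the controls. SMG1, a kinase of nonsense-mediated decay, was at 10.9 FPKM in siE2F1, against 9.22 and 8.66 FPKM in the controls (log2 fold change 0.26, limma adjusted p = 0.172). The log2 fold changes of the 7 tested neighbours ran from -0.29 (ABCC6) to 0.26 (SMG1), and limma called none of them, over all genes tested or without small RNA genes; ITPRIPL2 was too low to test. NOMO2 and NOMO3 are near-identical copies, and siE2F1 lay between the controls for both.

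**Figure D3:**
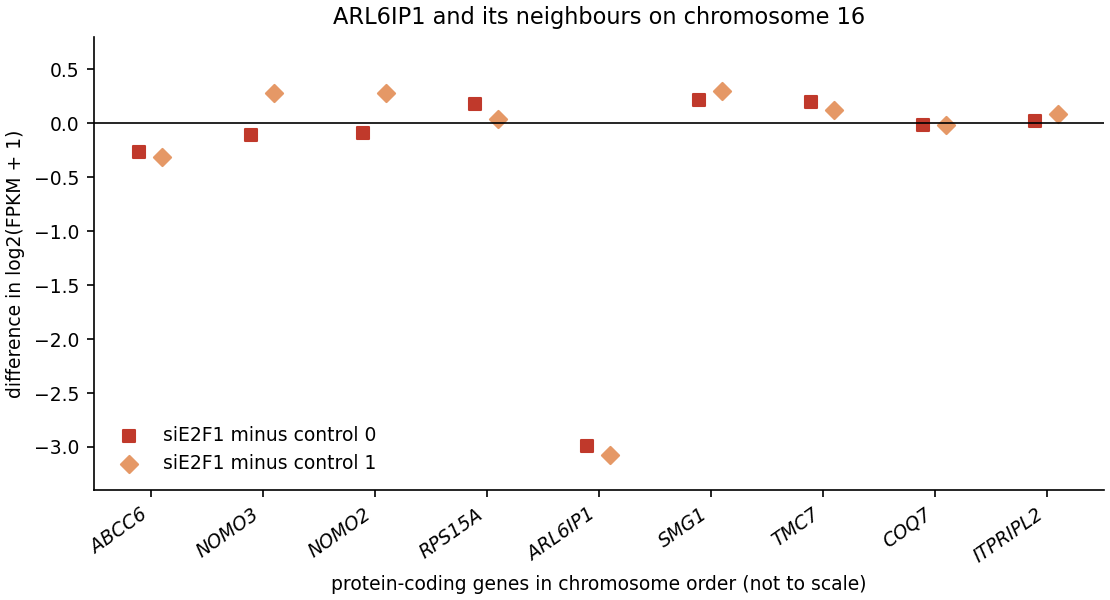
Difference in log2(FPKM + 1) between siE2F1 and control 0 (red squares) or control 1 (orange diamonds) for ARL6IP1 and the 4 listed protein-coding genes on each side of it, in chromosome order and not to scale. ARL6IP1 is at -2.99 and -3.07, and the tested neighbours have mean differences between -0.29 and 0.26.

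The genes most like ARL6IP1 in pattern were sought by the distance between their pair of differences (siE2F1 minus control 0, siE2F1 minus control 1) and that of ARL6IP1, over these 3 libraries. The nearest 5 with a symbol, small RNA genes left out, were CSAG2 (distance 1.07), TSPAN7 (1.08), E2F1 itself (1.30), ERLEC1 (1.56) and DESI2 (1.94). The smallest distance was over 1 log2 unit. ARL6IP1 had the lowest mean difference of the genes compared, so every distance was to a gene with a smaller fall. This depends on the pseudocount of 1 FPKM. With 0.1 FPKM, 9 genes outside the small RNA genes lay lower, among them CSAG2 (-3.93 against -3.10 for ARL6IP1). Distances were not computed there. ERLEC1, a lectin of ER-associated degradation, was at 5.57 FPKM in siE2F1, against 22.9 and 25.2 FPKM in the controls, and it is an ER gene outside the lists below. CSAG2 was at 0.233 FPKM in siE2F1, against 5.2 and 4.79 FPKM in the controls.

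A further 93 genes of the ER were listed in 6 groups, all were found, and 89 were tested. Over all genes tested, limma called 60 genes (0.417%) and none of these 89, of which 27 had an unadjusted p under 0.05 (30.3%), as did 4087 of all 14401 (28.4%). With small RNA genes left out, 8 of the 89 passed, 2 higher and 6 lower, where 4.17% of the 13928 genes tested were called higher and 6.36% lower. Adjusted p for these 8 ran from 0.0324 to 0.0498 there, from 0.111 to 0.117 over all genes tested and from 0.0899 to 0.188 over the 7 settings that keep small RNA genes. None of the 89 was at least 2-fold beyond both controls. Of all 14401 genes tested, 120 were at least 2-fold below both and 107 at least 2-fold above both, also few. Their differences ran from -0.71 to 0.71 with a median of 0.05, 35 lay below both controls (39.3%) and 45 above both (50.6%).

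Other ER-shaping genes, 17 of them tested, had a median difference of -0.03, with 9 below both controls and 7 above. RTN1, a reticulon best known from neurons, was at 4.75 FPKM in siE2F1, against 8.18 and 7.96 FPKM in the controls (log2 fold change -0.66; limma adjusted p = 0.111, and 0.0353 without small RNA genes). REEP1, a neuronal relative of REEP5 mutated in spastic paraplegia, was at 1.32 FPKM in siE2F1, against 2.84 and 2.53 FPKM in the controls (log2 fold change -0.67; limma adjusted p = 0.112, and 0.041 without small RNA genes). Both fell in the fit without small RNA genes. BSCL2, or seipin, which organizes lipid droplet formation at ER tubules, was the 1 member that rose in that fit, at 16.2 FPKM in siE2F1 against 9.32 and 9.82 FPKM in the controls (log2 fold change 0.71; limma adjusted p = 0.111, and 0.0344 without small RNA genes). TMCC2 had a log2 fold change of -0.44 and did not pass in either fit. ATL1, RTN2, REEP2 and TMCC3 were too low to test, at 0.776, 0.637, 0.363 and 0.103 FPKM in siE2F1.

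Among Rab proteins, their regulators and SNAREs that act at the ER, 9 genes, the median difference was -0.07, with 5 below both controls and 4 above. USE1, a SNARE of Golgi-to-ER transport, was at 13.6 FPKM in siE2F1, against 18.9 and 19.7 FPKM in the controls, and passed without small RNA genes (log2 fold change -0.48, limma adjusted p = 0.0409). RAB18 (0.39) and RAB10 (0.32), GTPases on ER tubules and their growing tips, and the SNARE SEC22B (-0.34) did not pass in either fit. Of 16 genes of ER-phagy, the autophagy of ER, and of the UFM1 modification pathway, 8 lay above both controls and 4 below (median 0.05). UFC1, the conjugating enzyme of UFM1, was at 106.3 FPKM in siE2F1, against 79.6 and 81.7 FPKM in the controls, and passed narrowly without small RNA genes (log2 fold change 0.39, limma adjusted p = 0.0498). FAM134B, a reticulon-type ER-phagy receptor that acts with ARL6IP1, was at 26.9 FPKM in siE2F1, between its controls at 23.9 and 27.5 FPKM, and is named after its values were seen. Its relative FAM134A (0.27), CDK5RAP3 (0.35) and UFSP1 (-0.25), both of the UFM1 pathway, did not pass.

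ARL6 and the other proteins named for binding it had differences near 0 but for 1. ARL6 was at 3.92 FPKM in siE2F1, between its controls at 4.02 and 3.76 FPKM, and is named after its values were seen. ARL6IP5, a membrane protein of the PRA1 family, was at 164.1 FPKM in siE2F1, against 112.1 and 126.2 FPKM in the controls (log2 fold change 0.46; limma adjusted p = 0.145, and 0.0641 without small RNA genes). ARL6IP4 (-0.09) and ARL6IP6 (-0.15) were slightly below both controls. None of these 4 genes passed.

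Genes of protein entry and insertion at the ER membrane, 27 in all, had a median difference of 0.06, with 9 below both controls and 15 above. SPCS2, a subunit of signal peptidase, was at 15.6 FPKM in siE2F1, against 26.0 and 26.3 FPKM in the controls (log2 fold change -0.71; limma adjusted p = 0.0324 without small RNA genes). MMGT1, a subunit of the ER membrane complex, was at 7.98 FPKM in siE2F1, against 11.5 and 11.6 FPKM in the controls (log2 fold change -0.48, limma adjusted p = 0.0403 without small RNA genes). EMC9 (-0.33), of the same complex, and SSR2 (0.30), of the translocon-associated complex, did not pass. SEC61B, the beta subunit of the translocon, is the 1 gene above the lowest value with the same deposited value in all 3 libraries, 205.0 FPKM, and is named after this was seen.

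Chaperones and folding enzymes of the ER lumen, 16 genes, had a median difference of 0.11, with 6 below both controls and 10 above. DNAJB11, a co-chaperone of BiP, was at 28.7 FPKM in siE2F1, against 42.7 and 40.2 FPKM in the controls, and fell in the fit without small RNA genes (log2 fold change -0.51, limma adjusted p = 0.0403). CALR, the calcium-binding chaperone calreticulin, was at 922 FPKM in siE2F1, against 687 and 615 FPKM in the controls, and did not pass (log2 fold change 0.50, limma adjusted p = 0.137, and 0.0521 without small RNA genes). TXNDC5 (-0.33) and DNAJC3 (0.28) did not pass either.

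**Figure D4:**
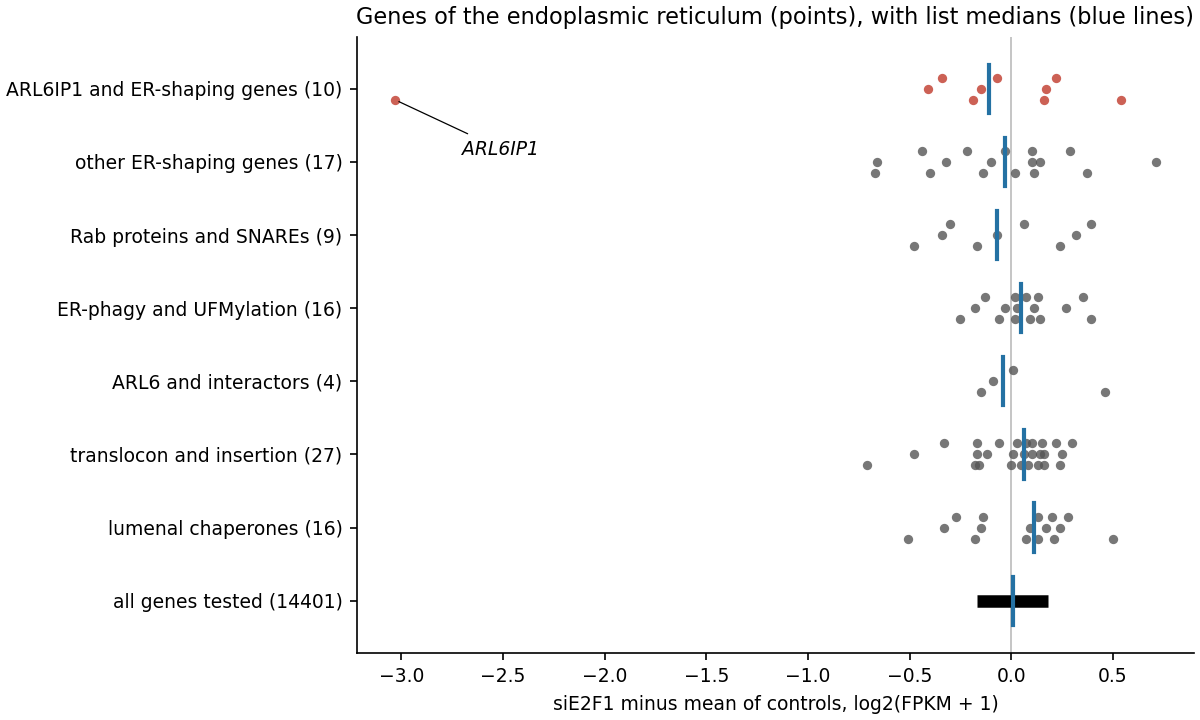
Difference between siE2F1 and the mean of the controls in log2(FPKM + 1) for each tested gene, by group, with the number of genes in brackets. Points are genes, blue lines group medians, and the black bar spans the quartiles of all 14401 genes tested (-0.17 to 0.18). ARL6IP1 at -3.03 stands apart, and the 89 other ER genes lie between -0.71 and 0.71.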

How the data were processed

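RNA-seq libraries from LNCaP-abl cells (1 siE2F1, 2 control) were analysed from the deposited log2 FPKM values, 1 per gene and library. Per the submitters' processing notes, the tools were TopHat2 2.0.4 and Cufflinks 2.0.2 with build hg19. Their parameters and gene annotation are not given in the sources used. The lowest deposited value, log2 of 0.1, was read as an addition, so FPKM is 2 raised to the value, minus 0.1. After sorting, the libraries are alike to within 0.0653 on the log2 scale, as after quantile normalization, which would hide a shift common to most genes. No read counts were given: depth and its precision are unknown.

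Differences were computed on log2(FPKM + 1). Genes averaging 1 FPKM or more went into limma 3.58.1 under R 4.3.3 (two-sided, mean-variance trend, Benjamini-Hochberg adjustment over all genes tested, threshold 0.05). The spread is that of the 2 controls (1 residual degree of freedom), may be technical, and is assumed for siE2F1. The limma step was run on simulated data in which all 3 libraries shared the spread of the controls. Such data cannot check whether siE2F1 has that spread. Small RNA genes were recognised by symbol (MIR, SNOR, RNU and SCARNA), without their host genes.

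Members and lists were chosen with earlier results of these data known. Named are the members, E2F1, up to 4 genes per list farthest from the nearer control on one side of both, the 5 nearest patterns and 4 neighbours on each side. List genes were matched by current or older symbol. Neighbours and promoters come from RefSeq (GRCh38.p14), by symbol, and promoter windows on chromosome 8 were left out. Alternatives were a pseudocount of 0.1 FPKM, no filter or a 5 FPKM minimum, quantile normalization, the lowest value as a minimum, no small RNA genes, no trend, and each control left out.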

Additional observations from a re-analysis of the deposited data

How the results depend on the processing

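ARL6IP1 was lower in siE2F1 under each setting run: the log2 difference was -3.10 with a pseudocount of 0.1, ran from -3.07 to -2.99 with one control left out, and was -3.03 and -3.02 with quantile normalization and with the lowest value read as a minimum. With small RNA genes left out its difference ranked 1 from the lowest, but 10 with the pseudocount of 0.1. It stayed the 1 gene of the 10 at least 2-fold beyond both controls. For the other 9 genes, all 27 values under the 3 settings that keep both controls had the same direction and moved by less than the SD of the controls. Leaving out a control could not turn a direction, since siE2F1 lay outside both controls for each. Calls over all genes depended on the setting. Against 60 calls by limma, 45 higher and 15 lower, the pseudocount of 0.1 gave 18 calls (7 higher). Leaving low genes in gave 0 calls, hence 0 higher and 0 lower, although 4859 genes had an unadjusted p under 0.05. The 5 FPKM minimum gave 26 higher calls. Without small RNA genes 1467 were called, 581 higher and 886 lower, and of the 89 other ER genes 8 were called, 2 higher and 6 lower, against 0 over all genes tested and under the other settings. E2F1 itself no longer passed in limma at adjusted p = 0.0601 (pseudocount 0.1) and 0.158 (low genes left in). The cause was not tested. With 1 control left out no residual degree of freedom remains, so the counts of calls were not run there. No paired analysis was possible because siE2F1 has 1 library. With 1 siE2F1 library and unknown depth, small differences of single genes have no replicate check.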
